A study of Homo sapiens with 8 samples.

Results

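The response of hTERT-RPE1 cells to 8 h without serine and glycine was compared between the 2 experiments in which it was measured. The line derives from human retinal pigment epithelium and was immortalised by telomerase. All 8 libraries of the study enter the comparison. They fall into 4 groups of 2: cells labelled ATF3 knockout in serine/glycine-free medium, cells labelled ATF3 knockout in complete medium, wild-type cells in serine/glycine-free medium and wild-type cells in complete medium. Replicate 1 of each group belongs to batch 1 and replicate 2 to batch 2, which were independent experiments 1 week apart. All cells had grown in complete medium for 2 days, and those starved were washed with saline before the change of medium. The labels give the complete-medium libraries as 0 h and the starved ones as 8 h. The passage of time and the loss of serine and glycine therefore cannot be told apart in any response below. The sources used here do not say whether the complete-medium cultures were washed and refed too, or give the knockout allele and the number of clones.

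A response is the difference in log2(FPKM + 1), serine/glycine-free minus complete medium, between the cultures of 1 genotype in 1 batch. FPKM is a fragment count scaled for transcript length and library size. There are therefore 2 responses per batch, from the knockout-labelled pair and the wild-type pair, and the batch response is their mean. Genes with 5 FPKM or more in at least 1 library of each batch and no value of 0 were kept, which left 9183 of 57884 listed genes (15.9%), 8298 of them protein-coding. Differences are batch 1 minus batch 2, so a negative value means a lower response in batch 1. They were tested with limma across all 9183 genes, with Benjamini-Hochberg adjustment and a threshold of 0.05. Each batch is 1 experiment, so the spread behind these p-values is that between the 2 genotypes within a batch. An exact permutation of 2 responses against 2 cannot give a p below 0.333.

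Loss of serine and glycine leaves transfer RNAs uncharged, which activates the kinase GCN2 and raises translation of the transcription factor ATF4. ATF4 switches on genes of amino acid synthesis and import and of transfer RNA charging. The other programs followed here have their own controllers: SREBP proteins for sterol and fatty acid synthesis, YAP and TAZ with TEAD factors and the SMAD factors of TGF-beta signalling for growth factors and matrix genes, and HIF factors for genes of low oxygen and glycolysis. RPE cells in culture are known to lose pigment and to respond strongly to TGF-beta.

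Several measures set the 2 batches apart before any response is considered. The FPKM sums ran from 2429660 to 3148150, with 60.5% to 65.7% of each in small RNA genes, and the absolute depth is unknown. Of 13 retinal pigment epithelium markers, 0 passed the filter, 8 were under 1 FPKM in every library, and OTX2 was at 0 in all 8. Of 7 immune markers, 0 passed. CDH1, the epithelial cadherin, was at 56.2 and 60.0 FPKM in the knockout-labelled libraries of batch 2 and at 1.23 or less in the other 6. SPARC, a matrix glycoprotein, was at 343 to 429 FPKM in batch 1 and at 1.66 or less in batch 2. Over 13 epithelial markers the summed level was 224 to 359 FPKM in batch 1 and 375 to 1293 in batch 2, and over 12 mesenchymal markers 1324 to 1861 in batch 1 and 189.9 to 791 in batch 2. Single members also went against these sums. The mesenchymal marker FN1 was at 20.5 to 36.1 FPKM in batch 1 and at 38.3 to 58.7 in batch 2. TWIST1, also mesenchymal, was at 0.153 or less in batch 1 and at 5.39 to 12.8 in batch 2. In wild-type cells the epithelial KRT8 was at 213 and 249 FPKM in batch 1 and at 34.5 and 55.0 in batch 2. The epithelial factor OVOL1 was at 4.25 to 7.43 FPKM in the knockout-labelled libraries of batch 2 and at 0 in the other 6. The labels name 1 line for both batches, the tables were normalized separately, and the part of these markers in the differences below was not tested. ATF3 mRNA itself was present in every library. In batch 1 it was at 4.45 and 3.38 FPKM in knockout-labelled cells (serine/glycine-free and complete medium) and at 6.46 and 3.47 in wild-type cells. In batch 2 it was at 57.3 and 20.8 FPKM in knockout-labelled cells and at 18.0 and 3.65 in wild-type cells, so the genotype is given as labelled. In bulk RNA, fewer cells of a kind and less RNA per cell cannot be told apart.

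The responses of the 2 batches were of like size and only partly the same. The SD of the batch response over genes was 0.386 in batch 1 and 0.377 in batch 2, with medians of 0.00 in batch 1 and 0.06 in batch 2. The response was 1 or more for 144 genes in batch 1 and 147 in batch 2, and -1 or less for 68 genes in batch 1 and 51 in batch 2. Over the 9183 genes, which are not independent replicates, the responses of the 2 genotypes correlated at r = 0.490 within batch 1 and r = 0.528 within batch 2. Responses from different batches correlated at r = 0.278 to 0.394, and the 2 batch responses, each a mean of 2 pairs, at r = 0.438. Between pairs of the same genotype in different batches r was 0.278 for knockout-labelled and 0.394 for wild-type cells. These correlations are descriptions, since genes share a library.

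By limma, 230 genes rose in batch 1 (2.5% of those tested) and 133 fell (1.45%). In batch 2, 310 genes rose (3.38%) and 91 fell (0.991%). Of the genes called higher, 95 were called in both batches, which is 41.3% of the batch 1 calls and 30.6% of the batch 2 calls. Of the genes called lower, 21 were shared, 15.8% of the batch 1 calls and 23.1% of the batch 2 calls. More calls had the same sign in the other batch without passing there. Of the genes called higher, these were 206 of the 230 in batch 1 and 267 of the 310 in batch 2. Among those called lower they were 107 of the 133 in batch 1 and 76 of the 91 in batch 2. The share of like signs over all genes was not computed. These counts depended on the settings. Without a filter on low values 2 genes rose and 2 fell in batch 1 and 0 and 0 in batch 2, and without the pairing of cultures 1 rose and 1 fell in batch 1 and 0 and 0 in batch 2. The split of the batch 2 calls depended on scaling. With each library centred on its median it was 191 higher and 120 lower, or 61.4% higher in place of 77.3%, and with quantile normalization 215 and 130, or 62.3%. In batch 1 the share called higher was 63.4%, 64.0% when centred and 57.1% after quantile normalization.

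The difference itself passed the threshold for 1 gene higher in batch 1, NDRG1 (0.0109%), and for 0 genes lower (0%). At an unadjusted p under 0.05 stood 1129 genes (12.3%), and 9 had an adjusted p under 0.1. Beside NDRG1 these 9 were TUFT1, PDLIM4, BMP4, CYR61, SNORD9, FERMT2, ASS1 and PHC2. Without a filter on low values, without the pairing of cultures or without the mean-dependent prior, 0 genes passed, and with protein-coding genes alone 13 were higher and 22 lower. Both batch 1 responses lay above both batch 2 responses for 1647 genes (17.9%) and below them for 2533 (27.6%). With a difference of 1 or more as well, 116 genes were above (1.26%) and 129 below (1.4%). Just inside that bound were PLK1S1 (1.002) and SOGA2 (-1.002), and just outside it SLC6A6 (0.9995) and MYL9 (-0.998).

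**Figure D1:**
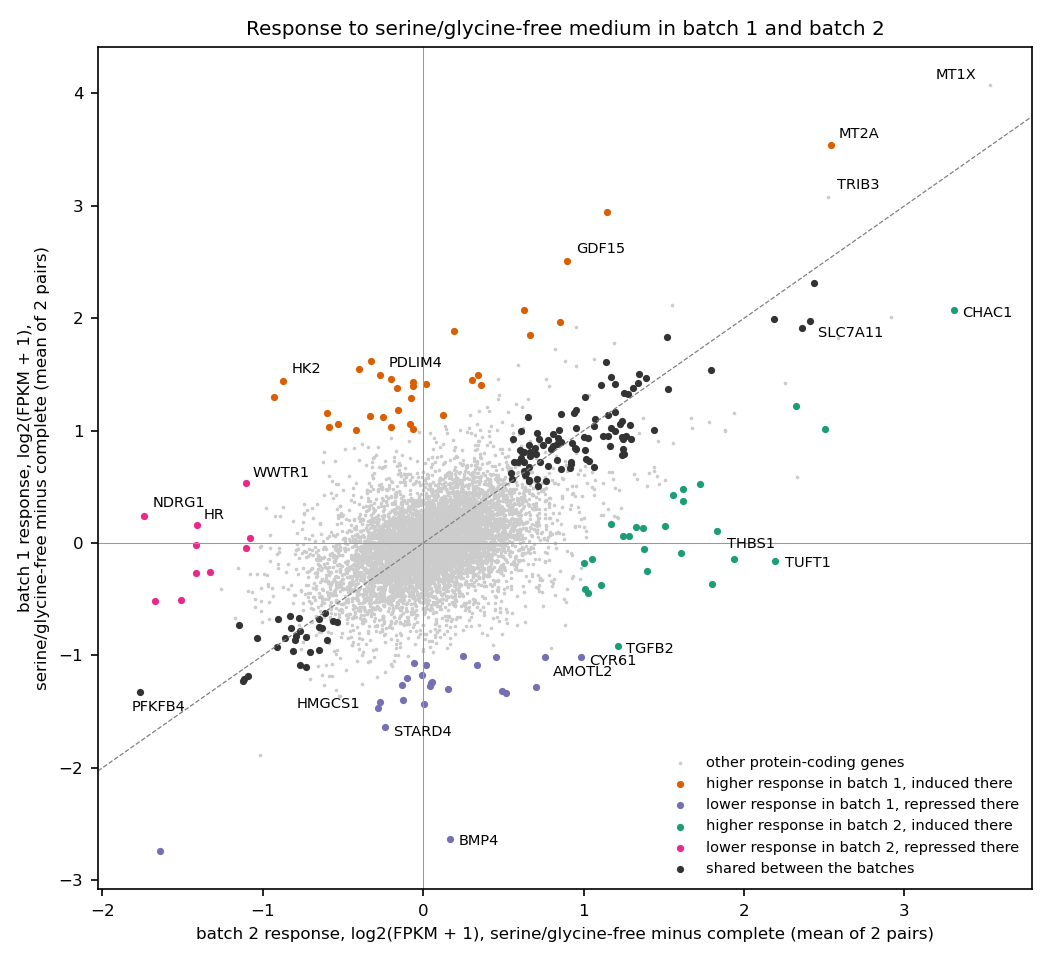
Mean response of each protein-coding gene in batch 1 (y axis) and batch 2 (x axis), in log2(FPKM + 1) units, serine/glycine-free minus complete medium; the dashed line marks equal responses. HK2, GDF15 and PDLIM4 lie above the line, BMP4, CYR61, TGFB2 and TUFT1 below it, and SLC7A11, a gene shared between the batches, near it at 1.98 in batch 1 and 2.41 in batch 2.

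Genes of the ATF4 amino acid response were higher in both batches. Of 38 measured members, 37 had a positive response in all 4 pairs, against 21.1% of all tested genes. The list's median response was 1.18 in batch 1 and 1.24 in batch 2, and 25 members were called higher in batch 1 and 29 in batch 2. Among all tested genes 2.5% were called higher in batch 1 and 3.38% in batch 2. SLC7A11 (ENSG00000151012), the transporter subunit that imports cystine, was at 37.7 FPKM (knockout-labelled) and 42.5 (wild type) in serine/glycine-free medium of batch 1, against 10.8 (knockout-labelled) and 8.20 (wild type) in complete medium. Batch 2 had it at 26.6 (knockout-labelled) and 26.1 FPKM (wild type) without serine and glycine, against 4.78 (knockout-labelled) and 3.59 (wild type) in complete medium. Both starved libraries were above both complete ones in each batch, and the difference between the responses was -0.43 ± 0.25 (SE, 2 pairs per batch; limma adjusted p = 0.517). PPP1R15A, a phosphatase subunit that restores translation, had responses from 1.33 to 1.44 in the 4 pairs, with a difference of 0.08 ± 0.17. PCK2, the mitochondrial enzyme that makes phosphoenolpyruvate, rose by 1.99 ± 0.19 in batch 1 and 2.19 ± 0.19 in batch 2 (limma adjusted p = 0.00788 in batch 1 and 0.00799 in batch 2).

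The serine synthesis enzymes PSAT1 and PSPH rose in both batches. PSAT1, the aminotransferase, rose by 1.54 ± 0.25 in batch 1 and 1.79 ± 0.25 in batch 2, and PSPH, the phosphatase of the last step, by 1.10 ± 0.17 in batch 1 and 1.07 ± 0.17 in batch 2. PHGDH, which catalyses the first step, rose in batch 2 by 1.17 ± 0.22 (limma adjusted p = 0.0382), and its batch 1 response of 0.63 ± 0.22 did not pass (0.150). Its difference of -0.54 ± 0.31 did not pass either (limma adjusted p = 0.511).

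Within the ATF4 list a part of the members had larger responses in batch 2. Both batch 1 responses were below both batch 2 responses for 15 of 38 members (39.5%) and above them for 5 (13.2%). Over all genes 27.6% were below and 17.9% above. The median difference was -0.043 between the knockout-labelled pairs and -0.40 between the wild-type pairs, beside -0.05 for the batch responses of all genes. With each library centred on its median 11 members were below (28.9%, against 20.2% of all genes). The largest gap in that direction was at CHAC1, which degrades glutathione. It was at 12.7 (knockout-labelled) and 23.9 FPKM (wild type) in serine/glycine-free medium of batch 1, against 2.83 (knockout-labelled) and 4.05 (wild type) in complete medium. The batch 2 cultures held it at 38.8 (knockout-labelled) and 76.0 FPKM (wild type) without serine and glycine, against 6.12 (knockout-labelled) and 3.38 (wild type) in complete medium. It rose by 2.07 ± 0.36 in batch 1 and 3.31 ± 0.36 in batch 2, and the difference of -1.24 ± 0.51 did not pass (limma adjusted p = 0.405). ATF3, the gene named by the genotype, rose in batch 2 by 1.72 ± 0.21, and its batch 1 response was 0.53 ± 0.21 (limma adjusted p = 0.202). GDF15, a secreted stress cytokine of the TGF-beta family, went the other way within the list. It was at 18.3 (knockout-labelled) and 19.4 FPKM (wild type) without serine and glycine in batch 1, against 2.85 (knockout-labelled) and 2.16 (wild type) in complete medium. Its batch 2 levels were 55.4 (knockout-labelled) and 31.2 FPKM (wild type), against 41.8 (knockout-labelled) and 11.2 (wild type). It rose in batch 1 by 2.51 ± 0.24, and its batch 2 response of 0.90 ± 0.24 did not pass (limma adjusted p = 0.0923).

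The list of transfer RNA charging leaned the same way, and that of amino acid transport did so mainly between the wild-type pairs. Of 20 cytosolic aminoacyl-tRNA synthetases, 11 had both batch 1 responses below both of batch 2 (55.0%, against 27.6% of all genes), and 0 had them above. Their median response was 0.47 in batch 1 and 0.75 in batch 2, and 10 members were called higher in batch 1 and 12 in batch 2. Such calls covered 2.5% of all tested genes in batch 1 and 3.38% in batch 2. GARS, the glycine synthetase, rose by 1.12 ± 0.12 in batch 1 and 1.67 ± 0.12 in batch 2, and MARS, the methionine enzyme, by 0.48 ± 0.09 in batch 1 and 1.06 ± 0.09 in batch 2. SARS, the serine synthetase, had responses of 1.54 (knockout-labelled) and 1.48 (wild type) in batch 1 and of 1.21 (knockout-labelled) and 1.48 (wild type) in batch 2. Of 14 amino acid transport genes, 6 were below (42.9%) and 0 above, with medians of 0.84 in batch 1 and 1.08 in batch 2. The median difference of the synthetases was -0.17 in both genotypes, and that of the transport genes -0.022 between the knockout-labelled and -0.44 between the wild-type pairs. For the batch responses of all genes it was -0.05. With each library centred on its median 7 of 20 synthetases and 4 of 14 transport genes were below, where 20.2% of all genes are.

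Short promoter stretches of 4 genes that hold a core motif are given as examples. They do not show what the other members of each program hold, and matches to the motifs of the other programs are not marked. Each is the 250 bases before the gene's start in RefSeq (GRCh38.p14), in the direction of the gene, and the capitals mark the only match on either strand to a core motif of the program's factors. INSIG1 (chr7:155297628-155297877, plus strand) has CACNCCAC of the sterol regulatory element on its opposite strand, P4HA1 (chr10:73096867-73097116, minus strand) has ACGTG of the hypoxia response element on its opposite strand, AMOTL2 (chr3:134374448-134374697, minus strand) has ACATTCC of TEAD sites, and CHAC1 (chr15:40953221-40953470, plus strand) has TGATGNAA of the amino acid response element on its opposite strand. AMOTL2 has 2 listed promoters, of which 1 holds the motif.
INSIG1: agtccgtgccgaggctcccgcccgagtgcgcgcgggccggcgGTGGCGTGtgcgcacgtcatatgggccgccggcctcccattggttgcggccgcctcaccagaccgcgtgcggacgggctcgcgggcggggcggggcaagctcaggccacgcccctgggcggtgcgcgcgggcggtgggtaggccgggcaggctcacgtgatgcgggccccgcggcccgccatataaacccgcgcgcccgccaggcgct
P4HA1: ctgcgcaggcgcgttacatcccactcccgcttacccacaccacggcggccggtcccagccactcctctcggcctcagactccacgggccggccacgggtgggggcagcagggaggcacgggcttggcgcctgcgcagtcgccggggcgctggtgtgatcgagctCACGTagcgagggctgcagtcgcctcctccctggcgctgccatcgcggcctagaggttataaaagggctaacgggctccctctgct
AMOTL2: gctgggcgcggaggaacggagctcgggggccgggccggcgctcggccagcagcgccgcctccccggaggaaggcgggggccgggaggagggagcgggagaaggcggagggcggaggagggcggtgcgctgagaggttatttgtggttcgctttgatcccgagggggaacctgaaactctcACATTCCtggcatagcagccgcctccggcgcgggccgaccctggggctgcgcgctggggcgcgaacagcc
CHAC1: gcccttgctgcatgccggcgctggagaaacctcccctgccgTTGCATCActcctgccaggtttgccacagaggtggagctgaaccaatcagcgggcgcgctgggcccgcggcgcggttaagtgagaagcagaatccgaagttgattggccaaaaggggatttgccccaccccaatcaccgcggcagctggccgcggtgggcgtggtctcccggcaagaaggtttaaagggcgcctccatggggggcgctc

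Of all 35116 RefSeq promoters cut this way, 4.87% hold CACNCCAC, 18.5% ACGTG, 2.96% ACATTCC and 3.14% TGATGNAA. A promoter was matched for 14 of the 17 measured hypoxia genes, and 9 of these hold ACGTG, against 30.7% of 6951 tested protein-coding genes with a promoter. A promoter was matched for 16 of 21 sterol (76.2%), 13 of 17 TGF-beta and YAP (76.5%) and 30 of 38 ATF4 members (78.9%). These shares are under the 80% of members set for such a count, so it is void for those lists and not given. A match in these letters is a description and not a shown binding site.

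Most genes of cholesterol synthesis fell in batch 1, with responses in batch 2 that were mostly of the same sign and smaller on average. Lower in both pairs were 19 members in batch 1 and 14 in batch 2, and 2 were higher in both pairs of each batch. Of the 9183 tested genes, 2983 were lower in both pairs of batch 1 and 2456 in both of batch 2. In all 4 pairs 13 members were lower, against 13.9% of all genes. Of 21 measured members, 17 were called lower in batch 1, where 1.45% of all genes were, and 2 in batch 2, where 0.991% were. The median response was -1.07 in batch 1 and -0.24 in batch 2, with a median difference of -0.84, beside -0.05 over all genes. Both batch 1 responses were below both of batch 2 for 17 members (81.0%) and above for 1 (4.76%), PMVK. These shares were 27.6% and 17.9% over all genes. The median difference was -1.03 between the knockout-labelled pairs and -0.53 between the wild-type pairs.

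HMGCS1 (ENSG00000112972, hg19 chromosome 5, 43287703 to 43313614), which condenses the precursor of mevalonate, was at 22.6 (knockout-labelled) and 20.3 FPKM (wild type) in serine/glycine-free medium of batch 1, against 61.2 (knockout-labelled) and 56.7 (wild type) in complete medium. The corresponding batch 2 values were 6.95 (knockout-labelled) and 6.0 FPKM (wild type), against 8.00 (knockout-labelled) and 7.99 (wild type) in complete medium. The batch 1 libraries did not overlap between media and lay above those of batch 2 in both, although levels in the 2 tables were normalized separately. MVK, mevalonate kinase, was at 7.68 (knockout-labelled) and 7.25 FPKM (wild type) without serine and glycine in batch 1, against 22.6 (knockout-labelled) and 21.2 (wild type) in complete medium. In batch 2 it was at 16.0 (knockout-labelled) and 13.8 FPKM (wild type), against 15.5 (knockout-labelled) and 14.2 (wild type). MVK fell by 1.44 on the log2 scale in batch 1 (SE 0.13, limma adjusted p = 0.00725), and its batch 2 response was 0.00 ± 0.13. The difference of -1.44 ± 0.19 had an adjusted p of 0.112.

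INSIG1, which holds the SREBP complex in the endoplasmic reticulum and carries the sterol motif above, had responses of -1.57 (knockout-labelled) and -1.22 (wild type) in batch 1, and of -0.06 (knockout-labelled) and -0.20 (wild type) in batch 2. STARD4, a sterol carrier, fell in batch 1 by 1.64 on the log2 scale (SE 0.14) and had -0.24 ± 0.14 in batch 2. Its locus is shared by 9 listed genes and that of MVK by 3, so reads of neighbours may be counted with them. This limit is common: 6354 of the 9183 tested genes share a locus with another listed gene. GARS and MARS, named above, each lie at a locus of 7 listed genes.

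In complete medium 15 of the 21 members (71.4%) were higher in both batch 1 libraries than in both batch 2 libraries, against 43.0% of all genes. After starvation 6 of 21 were (28.6%), against 38.8%. The complete-medium values enter the response, so these counts are not independent of it. Fatty acid synthesis genes had a median difference of -0.29. Of 11 members 8 were below in batch 1 (72.7%, against 27.6% of all genes) and 0 above, with medians of -0.47 in batch 1 and -0.12 in batch 2. SCD, the desaturase, fell in batch 1 by 1.00 on the log2 scale (SE 0.12) and had -0.38 ± 0.12 in batch 2, while FASN, fatty acid synthase, fell by 0.78 in batch 1 and by 0.77 in batch 2 (SE 0.13 each). SREBF2, which encodes the sterol-regulated SREBP, had -0.68 ± 0.16 in batch 1 and 0.28 ± 0.16 in batch 2 and passed in neither.

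**Figure D2:**
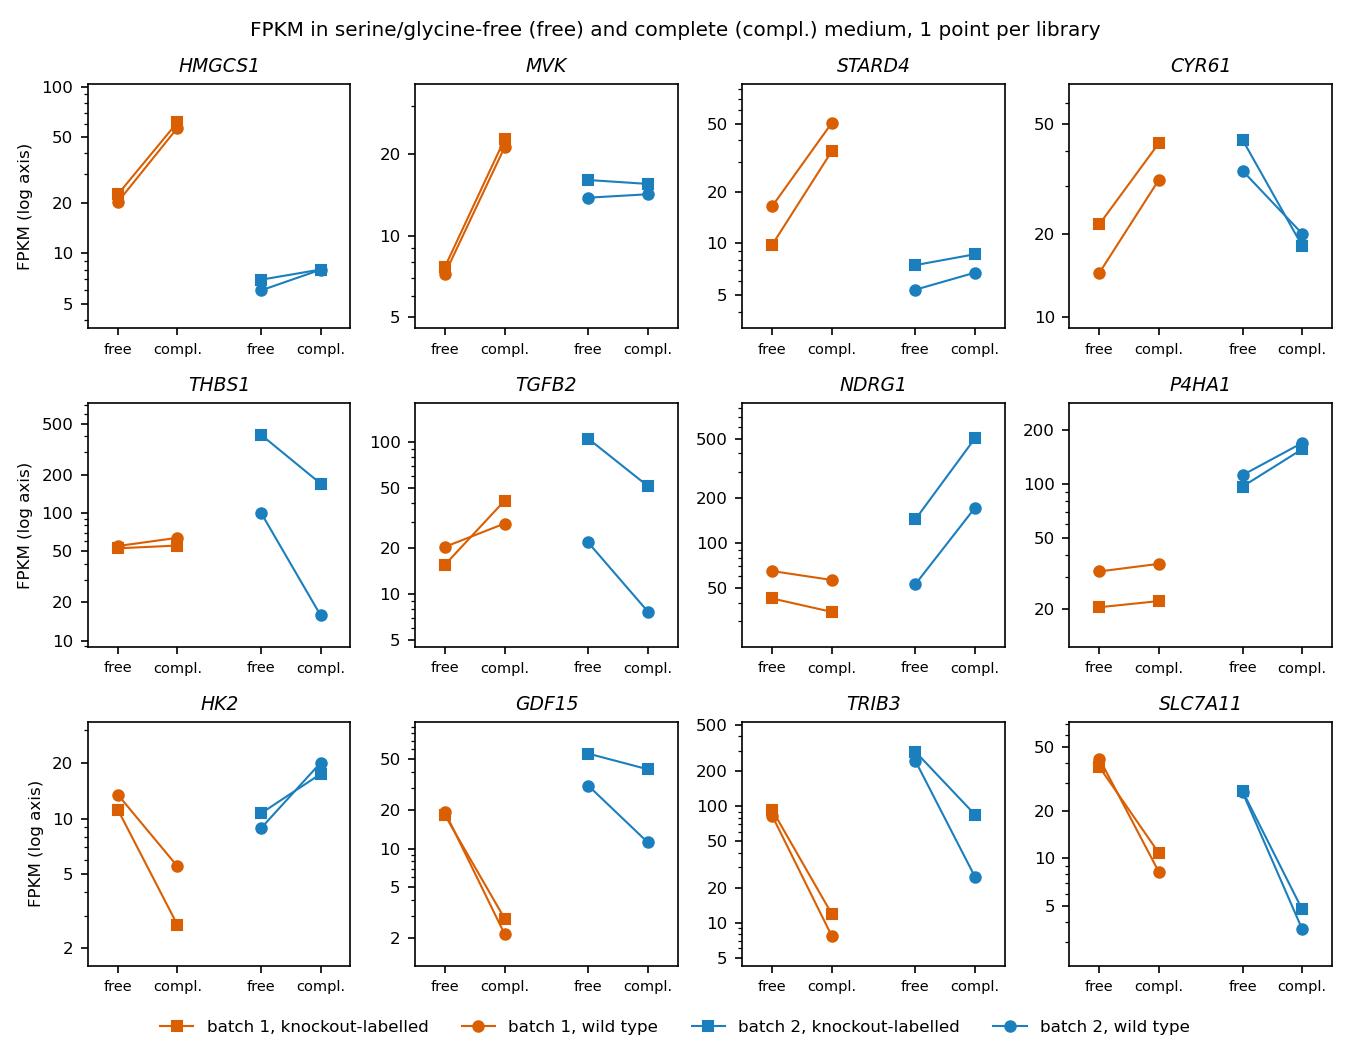
FPKM of 12 genes in every library on log axes, with serine/glycine-free and complete medium joined for each pair of cultures, batch 1 left of batch 2. HMGCS1, MVK and STARD4 had batch 1 responses of -1.42, -1.44 and -1.64 and batch 2 responses of -0.27, 0.00 and -0.24, CYR61 and TGFB2 ran in opposite directions, NDRG1 was lower without serine and glycine in batch 2, and TRIB3 and SLC7A11 were higher in all 4 pairs.

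Targets of TGF-beta and of YAP and TAZ went both ways in batch 1 and were mostly higher without serine and glycine in batch 2. Of 17 members, 9 were lower in both pairs of batch 1 and 6 higher, and 0 were lower in both pairs of batch 2 and 14 higher. Of the 9183 tested genes, 2983 were lower and 3187 higher in both pairs of batch 1, and 2456 lower and 3761 higher in both of batch 2. By limma, 1 was called higher and 4 lower in batch 1, and 7 were called higher and 0 lower in batch 2. Among all tested genes 2.5% were called higher and 1.45% lower in batch 1, and 3.38% and 0.991% in batch 2. The median response was -0.14 in batch 1 and 0.83 in batch 2, and the median difference was -1.21. Both batch 1 responses were below both of batch 2 for 12 members (70.6%), 9 of them by 1 or more, and above for 1 (5.88%). Over all genes 27.6% were below, 1.4% were below by 1 or more, and 17.9% were above. The median difference was -0.85 between the knockout-labelled pairs and -1.27 between the wild-type pairs.

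CYR61 (CCN1, ENSG00000142871, hg19 chromosome 1, 86046444 to 86049645), a secreted matrix-associated protein and common readout of YAP, was at 21.7 (knockout-labelled) and 14.5 FPKM (wild type) in serine/glycine-free medium of batch 1, against 42.8 (knockout-labelled) and 31.5 (wild type) in complete medium. Batch 2 had it at 44.0 (knockout-labelled) and 34.0 FPKM (wild type) in serine/glycine-free medium, against 18.1 (knockout-labelled) and 20.1 (wild type) in complete medium. The media did not overlap in either batch, and their order was opposite. It fell in batch 1 by 1.01 on the log2 scale (SE 0.15, limma adjusted p = 0.0239) and rose in batch 2 by 0.98 ± 0.15 (limma adjusted p = 0.0240). The difference of -1.99 ± 0.21 had an adjusted p of 0.0715, which misses the threshold.

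AMOTL2, an angiomotin that binds YAP and carries the TEAD motif above, was at 20.3 (knockout-labelled) and 21.2 FPKM (wild type) in serine/glycine-free medium of batch 1, against 36.8 (knockout-labelled) and 50.2 (wild type) in complete medium. The batch 2 cultures held it at 33.3 (knockout-labelled) and 20.6 FPKM (wild type), against 15.7 (knockout-labelled) and 14.5 (wild type). It fell in batch 1 by 1.02 on the log2 scale (SE 0.17), and its batch 2 response of 0.76 ± 0.17 had a limma adjusted p of 0.0641. AJUBA, a LIM protein that binds the LATS kinases, had -0.94 ± 0.24 in batch 1 and 0.80 ± 0.24 in batch 2 and passed in neither. BMP4, a ligand of the TGF-beta family, was at 4.79 (knockout-labelled) and 5.58 FPKM (wild type) without serine and glycine in batch 1, against 32.3 (knockout-labelled) and 43.1 (wild type) in complete medium. Its batch 2 levels were 8.98 (knockout-labelled) and 1.04 FPKM (wild type), against 9.33 (knockout-labelled) and 0.561 (wild type). It fell in batch 1 by 2.63 on the log2 scale (SE 0.20), and its difference of -2.80 ± 0.28 had a limma adjusted p of 0.0715.

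Other members rose in batch 2 with little movement in batch 1. THBS1, thrombospondin 1, was at 52.96 (knockout-labelled) and 55.2 FPKM (wild type) without serine and glycine in batch 1, against 55.6 (knockout-labelled) and 64.0 (wild type). The corresponding batch 2 values were 412 (knockout-labelled) and 101 FPKM (wild type), against 170 (knockout-labelled) and 15.7 (wild type). It rose in batch 2 by 1.94 ± 0.28 and had -0.14 ± 0.28 in batch 1. TGFBI, a TGF-beta-induced matrix protein, rose in batch 2 by 1.51 ± 0.16, CTGF (CCN2) by 0.98 ± 0.18 and ID3, an inhibitor of basic helix-loop-helix factors, by 0.93 ± 0.17. Their batch 1 responses were 0.15, -0.22 and -0.30.

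In complete medium 13 of the 17 targets (76.5%) were higher in both batch 1 libraries than in both of batch 2, and 0 were lower, while over all genes 43.0% were higher and 25.6% lower. After starvation 8 were higher (47.1%, against 38.8% of all genes) and 4 lower (23.5%, against 27.9%). As for the sterol genes, these values enter the response, so the counts are not independent of it. They also compare levels across 2 tables that were normalized separately. Outside the list, the ligand gene TGFB2 had -1.35 (knockout-labelled) and -0.49 (wild type) in batch 1, and 1.02 (knockout-labelled) and 1.4 (wild type) in batch 2. It rose in batch 2 by 1.21 ± 0.21 (limma adjusted p = 0.0346), and the batch 1 response of -0.92 ± 0.21 did not pass (0.0654). WWTR1, which encodes TAZ, ran against the targets. It was at 7.51 (knockout-labelled) and 6.46 FPKM (wild type) without serine and glycine in batch 1, against 4.33 (knockout-labelled) and 4.69 (wild type), and at 9.02 (knockout-labelled) and 9.20 FPKM (wild type) in batch 2, against 20.8 (knockout-labelled) and 20.7 (wild type). It fell in batch 2 by 1.10 on the log2 scale (SE 0.17), with 0.53 ± 0.17 in batch 1.

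Hypoxia genes had responses near 0 on average in batch 1 and lower ones in batch 2. Of 17 measured members, 13 had both batch 1 responses above both of batch 2 (76.5%, against 17.9% of all genes) and 0 below. The median response was -0.04 in batch 1 and -0.45 in batch 2, with a median difference of 0.52. In batch 1, 8 members were higher and 8 lower in both pairs, with 1 called higher and 2 lower. In batch 2, 2 were higher and 14 lower in both pairs, with 0 called higher and 4 lower. Of the 9183 tested genes, 3187 were higher and 2983 lower in both pairs of batch 1, and 3761 and 2456 in both of batch 2. Called higher and lower were 2.5% and 1.45% of them in batch 1, and 3.38% and 0.991% in batch 2. The median difference was 0.63 between knockout-labelled and 0.40 between wild-type pairs.

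NDRG1 (ENSG00000104419), a gene widely used as a marker of HIF activity, had the only difference that passed. It was at 42.7 (knockout-labelled) and 65.1 FPKM (wild type) in serine/glycine-free medium of batch 1, against 34.7 (knockout-labelled) and 56.7 (wild type) in complete medium. In batch 2 it was at 144 (knockout-labelled) and 53.1 FPKM (wild type) in serine/glycine-free medium, against 503 (knockout-labelled) and 173 (wild type) in complete medium. It fell in batch 2 by 1.74 on the log2 scale (SE 0.09, limma adjusted p = 0.00495), and its batch 1 response was 0.24 ± 0.09 (0.178). The difference was 1.98 ± 0.13 (limma adjusted p = 0.0199). Over 18 alternatives it stayed between 1.91 and 2.05, and its adjusted p ran from 0.00144 to 1.00. It passed no more without a filter on low values (adjusted p = 0.227), without the pairing (1.00) or with no trend in the prior (0.182), nor without the wild-type starved library of batch 2 (adjusted p = 0.0875), the wild-type complete library of batch 2 (0.0905) or the knockout-labelled complete library of batch 2 (0.0593).

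P4HA1, a prolyl hydroxylase of collagen that carries the hypoxia motif above, was at 20.4 (knockout-labelled) and 32.4 FPKM (wild type) without serine and glycine in batch 1, against 22.1 (knockout-labelled) and 35.8 (wild type). Batch 2 had it at 96.8 (knockout-labelled) and 112 FPKM (wild type), against 157 (knockout-labelled) and 170 (wild type). It fell in batch 2 by 0.64 on the log2 scale (SE 0.09) and had -0.12 ± 0.09 in batch 1. HILPDA, a lipid droplet protein induced by low oxygen, is not in the list and fell in batch 2 by 1.42 on the log2 scale (SE 0.22), with -0.02 ± 0.22 in batch 1. BNIP3, a mitophagy receptor, fell by 0.67 in batch 1 and by 0.78 in batch 2 (SE 0.13 each), and its responses overlapped between the batches. PFKFB4, an enzyme that tunes glycolytic flux, fell by 1.33 in batch 1 and by 1.76 in batch 2 (SE 0.15 each), with both batch 1 responses above both of batch 2 and a difference of 0.44 ± 0.22.

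Glycolysis genes followed the hypoxia genes. Of 18 measured members, 13 had both batch 1 responses above (72.2%) and 2 below (11.1%), with medians of 0.00 in batch 1 and -0.32 in batch 2. Over all genes 17.9% were above and 27.6% below. HK2 (ENSG00000159399, hg19 chromosome 2, 75059782 to 75120486), hexokinase 2, was at 11.2 (knockout-labelled) and 13.5 FPKM (wild type) in serine/glycine-free medium of batch 1, against 2.67 (knockout-labelled) and 5.53 (wild type) in complete medium. The batch 2 cultures held it at 10.7 (knockout-labelled) and 8.88 FPKM (wild type), against 17.4 (knockout-labelled) and 20.1 (wild type). It rose in batch 1 by 1.44 ± 0.21, its batch 2 response of -0.87 ± 0.21 did not pass (limma adjusted p = 0.0692), and the difference of 2.32 ± 0.29 had an adjusted p of 0.108. LDHA, lactate dehydrogenase A, fell in batch 2 by 0.60 on the log2 scale (SE 0.08), with -0.18 ± 0.08 in batch 1. PGK1, a kinase of the lower pathway, had -0.01 in batch 1 and -0.33 in batch 2, and ENO1, enolase 1, 0.02 in batch 1 and -0.36 in batch 2, and neither passed in either batch. In complete medium 9 of the 17 hypoxia genes (52.9%) and 7 of the 18 glycolysis genes (38.9%) were lower in both batch 1 libraries than in both of batch 2, against 25.6% of all genes. Here too the complete-medium values enter the response, so these counts are not independent of it.

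**Figure D3:**
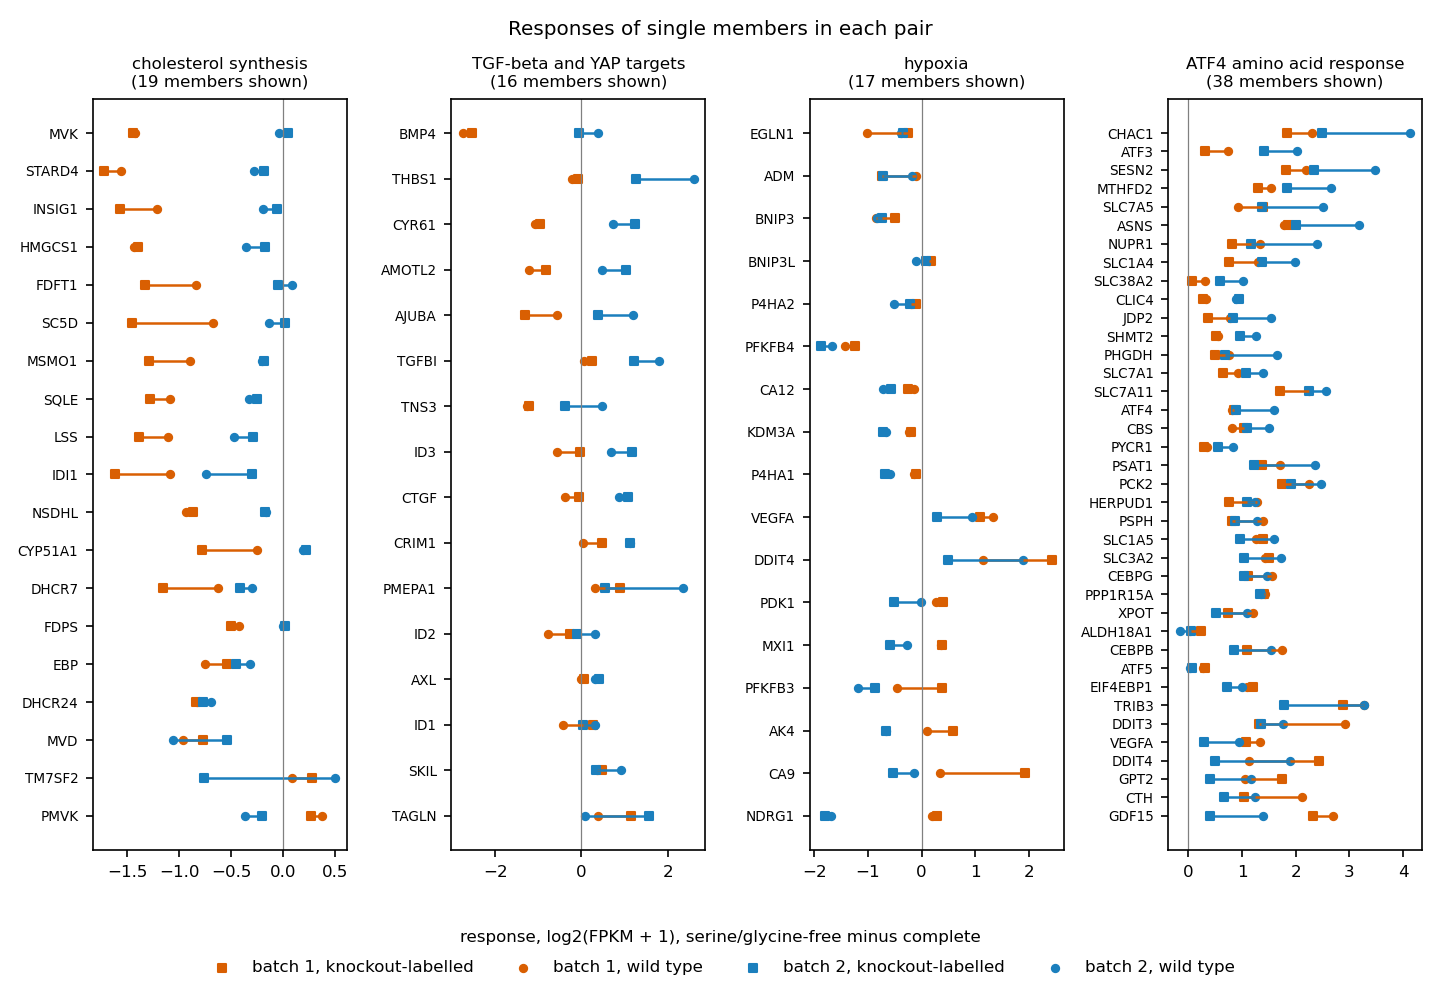
Response of single members of 4 lists in each pair of cultures, in log2(FPKM + 1) units, with the knockout-labelled (square) and wild-type (circle) pair of a batch joined by a line. Batch 1 lies left of batch 2 for most cholesterol and TGF-beta and YAP members and right of it for most hypoxia members, and 37 of 38 ATF4 members are above 0 in all 4 pairs.

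Among genes with responses separate between the batches by 1 or more, 46 (0.501% of those tested) had a batch 1 response of 1 or more and 32 (0.348%) a batch 2 response of 1 or more. In the same way 30 (0.327%) had a batch 1 response of -1 or less and 21 (0.229%) a batch 2 response of -1 or less. Opposite signs in all pairs, with batch responses of at least 0.5 in size, were found for 25 genes positive in batch 1 (0.272%) and 22 positive in batch 2 (0.24%). Responses of 0.5 or more in all 4 pairs, with batch means within 0.5 of each other, were found for 105 genes (1.14%), and of -0.5 or less for 32 (0.348%). All these counts depend on the pseudocount and the filter: the 46 genes, for instance, were 18 with a pseudocount of 5 and 218 with no filter. PDLIM4, an actin-binding PDZ and LIM protein, was at 127 (knockout-labelled) and 84.3 FPKM (wild type) without serine and glycine in batch 1, against 39.3 (knockout-labelled) and 33.2 (wild type), and its locus is shared by 8 listed genes. Its batch 2 levels were 11.2 (knockout-labelled) and 28.9 FPKM (wild type), against 13.7 (knockout-labelled) and 35.1 (wild type). It rose in batch 1 by 1.49 ± 0.12 and had -0.27 ± 0.12 in batch 2, a difference of 1.76 ± 0.17 (limma adjusted p = 0.0715). ITGA2, the alpha 2 integrin that binds collagen, rose in batch 1 by 1.89 ± 0.18, with 0.19 ± 0.18 in batch 2, and its locus is also shared by 8 listed genes. ASS1, argininosuccinate synthase, rose in batch 1 by 1.43 ± 0.12 and had -0.06 ± 0.12 in batch 2, where its level was 82.8 to 91.3 FPKM in knockout-labelled and 1.92 to 1.94 in wild-type cells. PHC2, a Polycomb protein, rose in batch 1 by 1.42 ± 0.12, with 0.02 ± 0.12 in batch 2. MYC rose in batch 1 by 1.46 ± 0.13, and its batch 2 response of 0.46 ± 0.13 did not pass (limma adjusted p = 0.0923).

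TUFT1 (ENSG00000143367, hg19 chromosome 1, 151512781 to 151556059), tuftelin, was at 11.5 (knockout-labelled) and 17.6 FPKM (wild type) without serine and glycine in batch 1, against 14.7 (knockout-labelled) and 17.3 (wild type). The corresponding batch 2 values were 38.0 (knockout-labelled) and 29.4 FPKM (wild type), against 8.18 (knockout-labelled) and 5.19 (wild type). It rose in batch 2 by 2.19 ± 0.15 and had -0.16 ± 0.15 in batch 1, a difference of -2.35 ± 0.21 (limma adjusted p = 0.0715). FGF2, basic fibroblast growth factor, rose in batch 2 by 1.83 ± 0.23, HBEGF, an EGF receptor ligand, by 1.55 ± 0.23, and IL11, an interleukin 6 family cytokine, by 1.61 ± 0.32. Their batch 1 responses were 0.10, 0.42 and -0.09 and did not pass. FST, follistatin, which binds activins, rose in batch 2 by 1.4 ± 0.19, where it was at 387 to 789 FPKM without serine and glycine and at 184 to 238 in complete medium. It had -0.25 ± 0.19 in batch 1, where it was at 5.82 to 11.8 FPKM in all 4 libraries. FERMT2, the integrin activator kindlin 2, rose in batch 2 by 0.82 ± 0.10, with -0.47 ± 0.10 in batch 1.

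Metal-binding and heat shock genes moved in the same direction in both batches, some of them by unlike amounts. MT1X and MT2A, metallothioneins that bind zinc and copper, had responses from 1.76 to 4.16 in the 4 pairs. MT2A rose by 3.54 ± 0.33 in batch 1 and 2.54 ± 0.33 in batch 2, and its wild-type complete library of batch 2 stood at 337 FPKM against 76.5 to 104 in the other 3 complete libraries. SLC30A1, a zinc exporter, rose by 1.22 ± 0.19 in batch 1 and 2.32 ± 0.19 in batch 2. The difference was 1.00 ± 0.46 for MT2A and -1.11 for SLC30A1, and neither passed. Metallothioneins are near-identical copies, so their reads may be split. Of 15 cytosolic heat shock genes, 15 had a negative response in all 4 pairs, against 13.9% of all genes, with medians of -0.71 in batch 1 and -0.57 in batch 2, and 8 were called lower in batch 1 and 5 in batch 2. Among all tested genes 1.45% were called lower in batch 1 and 0.991% in batch 2. Both batch 1 responses were below both of batch 2 for 6 of the 15 (40.0%, against 27.6% of all genes) and above for 0. With centred libraries 3 were below (20.0%, against 20.2% of all genes) and 2 above. HSPA1A, an inducible HSP70, fell by 2.74 on the log2 scale in batch 1 and by 1.64 in batch 2 (SE 0.15 each), and it is nearly identical to HSPA1B. The HSPA1A responses did not overlap between the batches, and the difference of -1.10 ± 0.22 did not pass (limma adjusted p = 0.152). HSPH1, an HSP70 exchange factor, fell by 1.21 in batch 1 and by 0.71 in batch 2 (SE 0.11 each).

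Histone genes had a median difference of -0.54, with -0.78 between the knockout-labelled and -0.33 between the wild-type pairs, and cytosolic ribosomal protein genes 0.13. Of 14 replication-dependent histone genes, 12 had both batch 1 responses below both of batch 2 (85.7%) and 0 above, with medians of -0.04 in batch 1 and 0.47 in batch 2, and 0 were called higher in batch 1 against 7 in batch 2. Calls of this kind made up 2.5% of all tested genes in batch 1 and 3.38% in batch 2. HIST1H1C, a linker histone, was at 1141 (knockout-labelled) and 1331 FPKM (wild type) without serine and glycine in batch 1, against 1321 (knockout-labelled) and 1459.7 (wild type). In batch 2 it was at 704 (knockout-labelled) and 878 FPKM (wild type), against 462 (knockout-labelled) and 650 (wild type), a rise of 0.52 ± 0.09. Histone genes are similar copies, and most of their mRNA lacks a poly(A) tail. Of 73 cytosolic ribosomal protein genes, 56 had both batch 1 responses above (76.7%) and 1 below (1.37%), with medians of 0.18 in batch 1 and 0.04 in batch 2 and 0 members called in either batch. That count was 65 with centred libraries and 27 after quantile normalization, where 24.2% and 21.8% of all genes are above. Of 28 ribosome biogenesis genes 15 were above (53.6%) and 3 below, with medians of 0.48 in batch 1 and 0.25 in batch 2. Of 134 snoRNA genes 38 were above (28.4%) and 11 below (8.21%). Over all genes 17.9% were above and 27.6% below. SNORD9 rose in batch 1 by 0.82 ± 0.09 and had -0.38 ± 0.09 in batch 2.

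**Figure D4:**
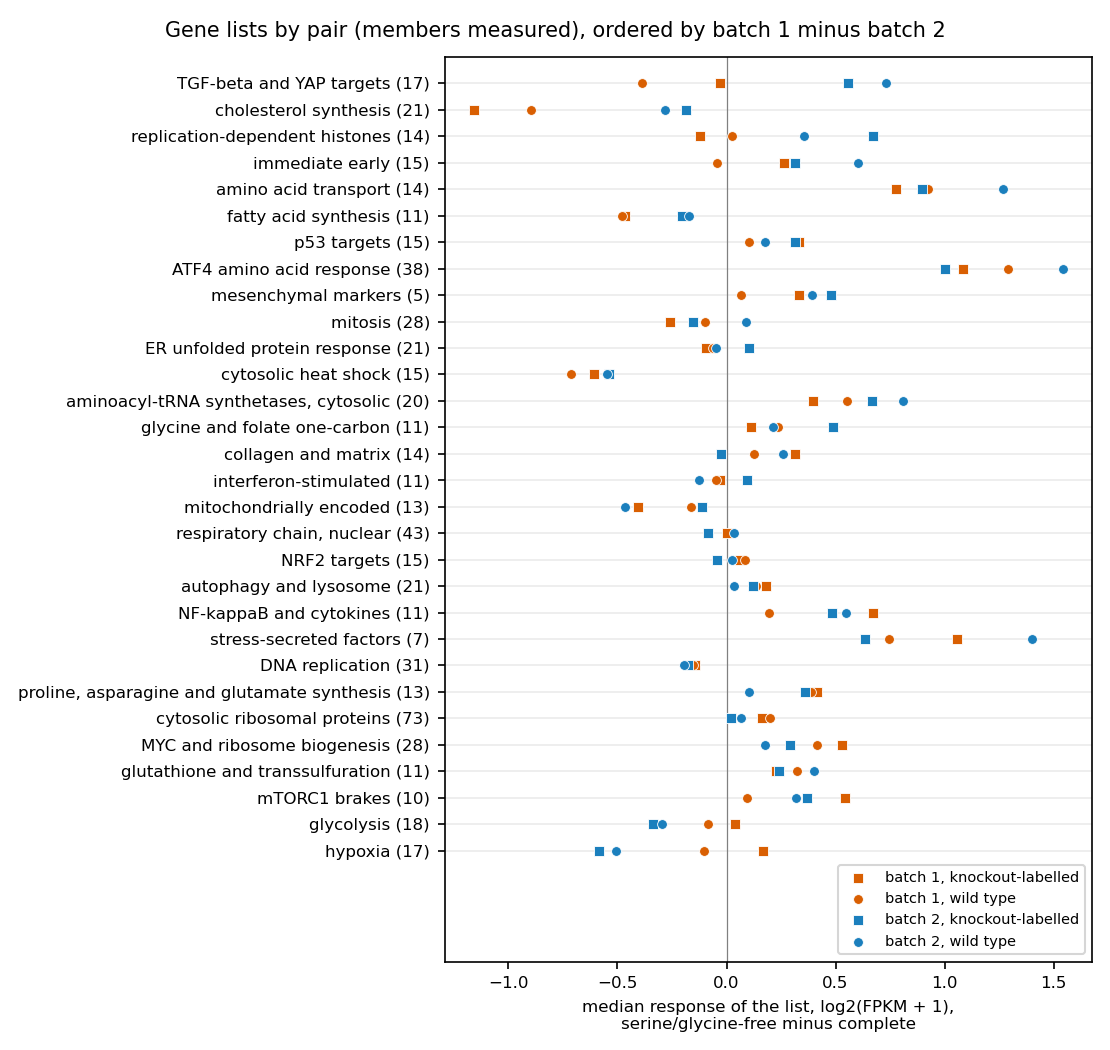
Median response of each list with 5 or more measured members in each pair of cultures, in log2(FPKM + 1) units, ordered by the median difference; squares are knockout-labelled and circles wild-type pairs. The batches separate for TGF-beta and YAP targets (batch 1 at -0.03 knockout-labelled and -0.39 wild type, batch 2 at 0.56 knockout-labelled and 0.73 wild type) and for cholesterol synthesis (batch 1 at -1.16 knockout-labelled and -0.90 wild type, batch 2 at -0.19 knockout-labelled and -0.28 wild type), and not for the ATF4 list.

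Some of the remaining lists are given by their medians. Immediate early genes had medians of 0.06 in batch 1 and 0.49 in batch 2, with 9 of 15 below (60.0%, against 27.6% of all genes). With centred libraries 5 of the 15 were below, against 20.2% of all genes, and the median difference was -0.042 between knockout-labelled and -0.74 between wild-type pairs. Of the list, CYR61 and CTGF are also among the YAP targets. Mitosis genes had -0.18 in batch 1 and -0.02 in batch 2, with 13 of 28 below (46.4%). Genes of the unfolded protein response had -0.16 in batch 1 and 0.06 in batch 2, with 8 of 21 below (38.1%), and 5 of 21 with centred libraries (23.8%). The lists of DNA replication, NRF2 targets, nuclear respiratory chain, autophagy and lysosome, interferon-stimulated, and collagen and matrix genes had median differences between -0.03 and 0.05.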

How the data were processed

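The authors deposited FPKM values in 2 tables, a table for each batch, listing 57884 Ensembl genes in 4 libraries. FPKM was inferred from the tools and the values. RNA was extracted with an RNeasy kit and libraries followed Illumina protocols, per the labels. The submitters' processing notes name TopHat, Cufflinks, Cuffdiff and hg19, and the sources used here give no versions or counting settings. Because FPKM is scaled for length and library size, the depth behind a value is unknown and no interval on it is given, and an exact 0 can be a failed estimate. Without stated strand use, overlapping genes cannot be told apart. The tables were normalized separately, so responses were formed within a batch.

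Sample titles gave the groups and the replicate numbers. Limma 3.58.1 in R 4.3.3 was run on log2(FPKM + 1), which understates changes of low genes. Each genotype in each batch was a term, which pairs the 2 media, with 1 response per batch, a trended empirical Bayes prior, 2 residual and 4.58 prior degrees of freedom, and two-sided Benjamini-Hochberg p-values over 9183 genes. The pairing is given by the series text, which states the shared batch. Libraries with the same number deviated together from their group means (r = 0.666 to 0.859 over genes in 6 pairs of batch 1, which those of batch 2 mirror, as each group has 2 libraries). Level differences between the 2 separately normalized batches make such r values positive by themselves, so they do not test the pairing. The steps were tested on simulated data. Gene types came from GENCODE release 29 by Ensembl ID (98.4% matched). Promoters came from RefSeq. Loci counts are from the files.

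The members, lists and tests were chosen with earlier results of these data known, and list counts are descriptions. Named genes are ATF3, the serine synthesis genes, those called for the difference, the largest of each response class and for each list the 4 members that differ most. HMGCS1, P4HA1 and other list members outside that rule, and FERMT2, PHC2 and SNORD9, were picked after their values were seen. Alternatives varied the pseudocount, filter, scaling, pairing, prior and libraries. Comparing the wild-type and the knockout-labelled pairs alone was added after the data were seen. A few genes are not reported here, and list counts include them.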

Additional observations from a re-analysis of the deposited data

Results flagged for a closer look

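NDRG1 was picked out because its difference between the batches passed the test of the difference itself, at 1.98 ± 0.13 on the log2 scale (SE, 2 pairs per batch; limma adjusted p = 0.0199). The adjusted p ranged from 0.00144 to 1.00 over the alternatives, and the response was positive in 2 of 2 pairs of batch 1 and negative in 2 of 2 of batch 2.

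A further 11 genes were picked out because both pairs of 1 batch moved one way and both pairs of the other the opposite way, by 0.5 or more on average. The difference of each was tested with limma and missed the threshold, with adjusted p from 0.0715 (CYR61) to 0.161 (SMPD1). Positive in batch 1 and negative in batch 2 were HK2 (difference 2.32), TMEM194B (2.23), DHRS3 (1.76), WWTR1 (1.64), IL27RA, a cytokine receptor (1.18) and NAB2, a co-repressor of EGR factors (1.06). Negative in batch 1 and positive in batch 2 were TGFB2 (-2.13), CYR61 (-1.99), NUAK1, an AMPK-related kinase (-1.85), AMOTL2 (-1.77) and SMPD1, acid sphingomyelinase (-1.31). They are among the protein-coding genes with the largest smallest response over the 4 pairs. Those genes number 13 positive in batch 1 and 17 positive in batch 2, out of 25 and 22 genes of all types.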

How the results depend on the processing

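The difference was called for 1 gene higher in batch 1 and 0 lower. It was called for 9 higher and 10 lower with a filter of 1 FPKM in 2 libraries, 0 and 0 with no filter beyond a value above 0, 13 and 22 with protein-coding genes only, 0 and 0 with no replicate block, 12 and 16 with the replicate block and a medium by genotype term, 0 and 0 with no trend in the prior, and 1 and 2 with a pseudocount of 5. Leaving out 1 library gave 0 to 20 higher and 0 to 14 lower, the highest counts without a wild-type library of batch 1 (20 and 14 without the starved one, 20 and 13 without the complete one).

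The batch 1 response, with 230 genes higher and 133 lower, gave 5 and 9 with the 1 FPKM filter, 2 and 2 with no filter, 385 and 255 with protein-coding genes only, 1 and 1 with no replicate block and 34 and 17 with no trend. Leaving out 1 library gave 72 to 232 higher and 26 to 122 lower, the lowest without the knockout-labelled complete library of batch 1. The batch 2 response, with 310 higher and 91 lower, gave 6 and 6 with the 1 FPKM filter, 0 and 0 with no filter, 191 higher with median-centred libraries, 170 lower with protein-coding genes only, 0 and 0 with no replicate block and 48 and 15 with no trend. Leaving out 1 library gave 21 to 412 higher and 6 to 150 lower, the lowest without the wild-type starved library of batch 2. A left-out library leaves 1 pair in its batch, which the model assumes to vary like the other batch.

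Genes with separate responses and a difference of 1 or more numbered 116 above and 129 below in batch 1. They were 43 and 52 with a pseudocount of 5, 458 and 476 with the 1 FPKM filter, 515 and 523 with no filter, 77 above with protein-coding genes only and 253 below between the wild-type pairs alone. Without 1 library, where 1 response stands against 2, they were 133 to 202 above and 183 to 218 below. By kind of response, from a pseudocount of 5 to no filter, the counts ran from 18 to 218 for genes induced more in batch 1 (46), 19 to 128 for those induced more in batch 2 (32), 14 to 172 and 8 to 104 for those repressed more in batch 1 (30) and in batch 2 (21), 7 to 72 and 8 to 68 for opposite signs (25 positive in batch 1 and 22 in batch 2), and 73 to 140 and 13 to 50 for shared positive (105) and negative (32) responses. The SD of the batch response was 0.424 in batch 1 and 0.418 in batch 2 with a pseudocount of 0.1, 0.305 and 0.298 with 5, 0.572 and 0.490 with the 1 FPKM filter, 0.499 and 0.433 with no filter, and 0.364 in batch 2 with protein-coding genes only. Without 1 library it was 0.386 to 0.463 in batch 1 and 0.377 to 0.434 in batch 2.

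Over 17 alternatives the median difference stayed between -1.03 and -0.53 for cholesterol synthesis, -1.31 and -0.77 for TGF-beta and YAP targets, 0.35 and 0.63 for hypoxia and -0.49 and 0.01 for the ATF4 list. It changed sign under at least 1 alternative for 17 of 33 lists, the ATF4 list among them. Wide ranges were those of serine synthesis (-0.25, from -0.82 to 0.24), metallothioneins (0.54, from -0.21 to 1.21), mTORC1 brakes (0.19, from -0.15 to 0.26), NF-kappaB and cytokines (0.04, from -0.33 to 0.17) and stress-secreted factors (0.04, from -0.26 to 0.34). Among lists whose difference exceeded the spread between pairs, it changed sign for glutathione genes (0.18, but -0.21 in wild-type pairs alone, and -0.12 to 0.18 with 1 library left out, the lowest without a knockout-labelled library of batch 2), DNA replication (0.05, but -0.013 with a pseudocount of 5, and -0.027 to 0.042 with 1 library left out, the lowest without a wild-type library of batch 2) and mesenchymal markers (-0.19, but 0.094 in knockout-labelled pairs alone, and -0.31 to 0.15 with 1 library left out, the highest without a wild-type library of batch 1). The causes of these changes were not tested. Depth is unknown, so low values cannot be given a counting error, and 2 experiments do not show the spread of further ones.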
